A study of Mus musculus with 10 samples.

Results

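The integrated stress response and the unfolded protein response of the endoplasmic reticulum (ER) were followed in differentiating mouse osteoblast precursors through 44 genes, which were taken by name from the 23358 rows of the deposited gene count table. All 44 names were found in the table. They form an ATF4 arm of 28 genes, made of transcription factors, stress targets, amino acid synthesis enzymes and transporters, and a chaperone arm of 16 genes, made of ER stress sensors, folding factors and degradation factors. The genes, their arms and the further lists below were chosen with earlier results of these data known. Their values beside all genes are therefore a description and no independent support. The cells were MC3T3, a line of pre-osteoblasts from mouse calvaria. Every culture, controls included, grew in osteogenic medium (ascorbic acid plus beta glycerol phosphate) and received either vehicle (DMSO) or 5 µM GSK126, which inhibits the histone methyltransferase EZH2. Vehicle or GSK126 was given on day 0 and again 3 days later and was taken away on day 6, with fresh medium. The 6 RNA libraries are 1 for each treatment on each of days 3, 6 and 10, and the repressive mark H3K27me3 was profiled 24 hours after the first dose with 1 ChIP and 1 input library per treatment. The sources used here do not say whether day 6 RNA was collected before or after the medium change, nor whether the libraries came from independent cultures, so the p-values below speak only for the variation among these 6 libraries.

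In the integrated stress response, kinases that sense ER stress, amino acid shortage, double-stranded RNA or heme shortage phosphorylate the translation factor eIF2. General protein synthesis then slows while the mRNA of the transcription factor ATF4 is translated better, and ATF4 with its C/EBP and ATF partners switches on genes of amino acid synthesis, amino acid uptake and stress control. The unfolded protein response has further branches through ATF6 and through IRE1 (gene Ern1) with XBP1, which switch on chaperones and degradation factors of the ER. Osteoblasts secrete much collagen, and ATF4 is known to be needed for osteoblast maturation and amino acid supply.

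Total counts were between 97291878 and 111537936 per RNA library. The 6 osteoblast markers examined (Runx2, Sp7, Alpl, Col1a1, Bglap, Ibsp) summed to 24710 to 34773 CPM (counts scaled to a common library total) in vehicle and 29330 to 38902 CPM in GSK126, most of it Col1a1 (23743 to 36244 CPM). All 6 had a positive GSK126 difference over the 3 days and edgeR called 2, Ibsp at 2.18 (adjusted p = 0.0251) and Bglap at 3.34 (adjusted p = 0.0421). On day 6, where the ATF4 arm stood furthest from vehicle, the log2 ratio of GSK126 to vehicle was 4.41 for Bglap, 2.27 for Ibsp, 1.15 for Sp7, 1.01 for Alpl, 0.23 for Runx2 and 0.09 for Col1a1, and the part of osteoblast maturation in the members' differences was not tested. Markers of blood, endothelial, fat, muscle and nerve cells each summed to at most 1.73 CPM in any library, and Hbb-b1, Kdr and Myod1 were at 0 in all 6. The ribosomal RNA precursor Rn45s took 4.37% and 4.44% of counts on day 3 (vehicle and GSK126), 5.99% and 5.61% on day 6 and 7.24% and 7.47% on day 10. This share moved with day. With Rn45s left out, all 43 members tested kept their direction and their side of the threshold in each comparison between days and treatments. After a filter on low counts 14344 genes were tested, 43 members among them. Stc2, which encodes stanniocalcin 2, did not pass, with 0 to 2 counts per library. In these cultures more cells expressing a gene and more RNA of it per cell cannot be told apart.

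Known elements of each arm were searched in the members' promoters, and those of 9 members are shown because the same genes carry the expression results below. Promoters (250 bases before to 50 bases after the start site) came from RefSeq on GRCm38.p6, the mm10 build, and 39 members matched an entry, 25 of the ATF4 arm and 14 of the chaperone arm. No entry was matched for Slc7a5, Slc7a3, Eif4ebp1, Atf6 and Manf. The sequences run 5′ to 3′ on the gene's own strand, and capitals mark the match. In 5 ATF4 arm promoters the capitals mark TGATGNAA, the C/EBP-ATF response element (CARE), on either strand.
Chac1: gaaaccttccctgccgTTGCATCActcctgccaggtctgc
Slc7a11: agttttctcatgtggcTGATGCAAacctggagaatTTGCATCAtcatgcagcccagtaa
Atf3: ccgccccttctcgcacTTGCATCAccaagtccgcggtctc
Nupr1: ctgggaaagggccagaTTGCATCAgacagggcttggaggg
Asns: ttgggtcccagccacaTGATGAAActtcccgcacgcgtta
In 3 chaperone promoters the capitals mark the ER stress response element (ERSE), which is CCAAT, 9 free bases and CCACG, or its reverse complement.
Hspa5: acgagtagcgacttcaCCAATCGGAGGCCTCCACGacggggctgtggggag
Canx: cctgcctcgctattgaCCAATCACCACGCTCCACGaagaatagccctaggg
Calr: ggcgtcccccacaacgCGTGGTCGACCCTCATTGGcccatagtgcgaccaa
The degradation factor Herpud1 holds a CARE match and a match to ERSE-II, which is ATTGG, 1 free base and CCACG.
Herpud1: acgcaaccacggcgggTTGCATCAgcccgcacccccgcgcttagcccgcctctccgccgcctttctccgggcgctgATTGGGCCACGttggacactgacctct

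These stretches lie at chr2:119351033-119351072 (Chac1, plus strand), chr3:50443637-50443695 (Slc7a11, minus strand), chr1:191183420-191183459 (Atf3, minus strand), chr7:126625557-126625596 (Nupr1, minus strand) and chr6:7693209-7693248 (Asns, minus strand). Those of the chaperone arm lie at chr2:34772009-34772059 (Hspa5, plus strand), chr11:50325784-50325834 (Canx, minus strand), chr8:84847059-84847109 (Calr, minus strand) and chr8:94386301-94386403 (Herpud1, plus strand). The first base of the match stood 193 bases before the start site in Chac1, 110 bases in both Atf3 and Nupr1, 23 bases in Asns, and 66 and 47 bases in Slc7a11, the only promoter of the 5 shown with CARE matches on both strands. A CARE match was found in 8 of 25 ATF4 arm promoters (also Trib3, Vldlr and Pycr1) and in 1 of 14 chaperone promoters, against 4.51% of the promoters of 27025 symbols. An ERSE match was found in 0 of 25 ATF4 arm promoters and 7 of 14 chaperone promoters (also Hsp90b1, Dnajc3, Pdia6 and Creld2), against 0.137% of all. ERSE-II was held by Herpud1 alone, against 0.0444% of all promoters, and the UPRE letters TGACGTGG by no member, against 0.714%. A match to letters is not a measured binding site, and the lack of one says only that the letters are absent from this window.

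Per length, the most abundant members were chaperones. Mean deposited RPKM (read counts scaled to gene length and library total) over the 6 libraries was 234 for Hsp90b1, 211 for Calr and 185 for Hspa5, all residents of the ER lumen, and 104 for Atf4, the fourth in order. The cystine transporter gene Slc7a11 (0.556) and the cationic amino acid transporter gene Slc7a3 (0.527) were the lowest of the 43 members tested.

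Within each day, GSK126 and vehicle libraries differed most on day 6, and mainly in the ATF4 arm. For each day the log2 ratio of 1 GSK126 library to 1 vehicle library was taken from CPM scaled by TMM (trimmed mean of M values, a scaling for library composition), with a prior count of 2. No single day has a test, and the 95% intervals given are exact binomial intervals that cover counting error only. The median ratio of the ATF4 arm was 0.09 on day 3, 1.16 on day 6 (a 2.24-fold median) and 0.07 on day 10. That of the chaperone arm was 0.04, 0.25 and 0.31, and the median of all genes tested was between -0.01 and 0.002 on each day. On day 6 the ATF4 arm median was above that of the chaperone arm, and on day 10 it was below it.

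Counted at 2-fold or more, 2 of 27 ATF4 arm genes were higher with GSK126 on day 3 (all genes 4.12%), 16 of 27 on day 6 (all genes 6.06%) and 3 of 27 on day 10 (all genes 4.54%). No ATF4 arm gene was 2-fold lower on day 3 (all genes 0.683%) or day 6 (3.17%), and 1 was on day 10 (4.13%). In the chaperone arm 0 of 16 genes reached 2-fold in either direction on any day. On day 6 the counting interval lay above 0 for 26 of 27 ATF4 arm genes and below 0 for Ddit4. It lay above 0 for 12 of 16 chaperone arm genes on that day. The counts above 0 were 14 of 27 and 7 of 16 on day 3, and 10 of 27 and 14 of 16 on day 10. Such intervals were not computed over all genes, so no share of all genes stands beside these counts. By day, the ratio was largest on day 6 for 24 of 27 ATF4 arm genes and for 7 of 16 chaperone arm genes. For the other 9 chaperone arm genes it was largest on day 10. The day of the largest ratio was counted for members only, without a share of all genes.

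**Figure D1:**
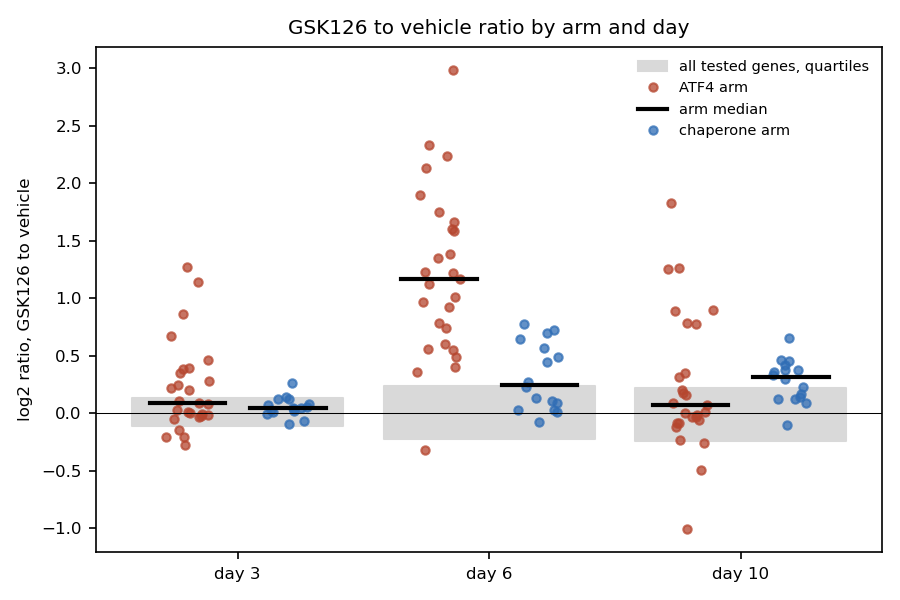
Log2 ratio of the GSK126 library to the vehicle library (vertical axis) on days 3, 6 and 10, with 1 point per gene of the ATF4 arm (red, n = 27) and the chaperone arm (blue, n = 16), a black bar for the arm median and a grey band from the lower to the upper quartile of all 14344 genes tested. On day 6 the ATF4 arm median is 1.16 and that of the chaperone arm 0.25.

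The 7 transcription factors of the ATF4 arm all had a positive day 6 ratio, with a median of 1.38. Atf4 itself stood at 229, 229 and 129.6 CPM with vehicle on days 3, 6 and 10, and at 226, 395 and 149 CPM with GSK126. Only the GSK126 library of day 6 stood apart upward, 1.73-fold above its vehicle partner. Ddit3, which encodes the pro-apoptotic factor CHOP, stood at 14.4, 25.0 and 13.5 CPM with vehicle and 14.4, 75.9 and 11.5 CPM with GSK126. Its ratio was 1.60 on day 6 (95% interval 1.51 to 1.69) and -0.23 on day 10 (-0.40 to -0.07), so that the order of the libraries turned after day 6. The gene overlaps Mars by 68 bases, and reads cannot be assigned by strand here.

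Atf3, a stress-induced repressor and activator, stood at 2.56, 8.09 and 1.88 CPM with vehicle and at 4.09, 27.3 and 2.40 CPM with GSK126. Atf5, a relative of ATF4 that also answers to eIF2 phosphorylation, stood at 53.7, 119 and 48.1 CPM with vehicle and 57.7, 310.2 and 46.1 CPM with GSK126. Nupr1, a small stress-induced chromatin protein, stood at 21.1, 41.0 and 40.7 CPM with vehicle and 26.8, 153 and 40.7 CPM with GSK126. In each of these 3 genes vehicle was also higher on day 6 than on day 3, and the treated day 6 library was the highest of the 6. Atf5 shares 239 bases with Nup62. The C/EBP partners had smaller day 6 ratios, 0.97 for Cebpb and 0.55 for Cebpg.

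Stress targets held both the largest difference of the set and the one member that went the other way on every day. Trib3, a pseudokinase that dampens ATF4 activity, stood at 2.72, 14.8 and 1.30 CPM with vehicle and 6.04, 117 and 4.67 CPM with GSK126. GSK126 was above vehicle on all 3 days, by 7.92-fold on day 6, and vehicle alone also peaked on day 6. Chac1, which degrades glutathione, stood at 5.14, 10.7 and 1.18 CPM with vehicle and 9.37, 50.4 and 2.84 CPM with GSK126, again with GSK126 above vehicle on each day. Vldlr, a lipoprotein receptor, stood at 91.8, 219 and 152 CPM with vehicle and 120.3, 490.0 and 365 CPM with GSK126. Its ratio was 1.16 on day 6 and 1.27 on day 10, so that Vldlr, unlike most of the arm, had no smaller ratio on day 10.

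Ddit4, an inhibitor of mTORC1 signalling, stood at 73.1, 88.8 and 76.2 CPM with vehicle and 63.1, 71.2 and 37.8 CPM with GSK126. It was lower with GSK126 on each day, by 0.21, 0.32 and 1.01 on the log2 scale as the size of the difference, and it was the 1 member 2-fold lower on day 10. Ppp1r15a, the eIF2 phosphatase subunit GADD34, stood at 23.0, 16.2 and 12.3 CPM with vehicle and 20.8, 32.7 and 12.2 CPM with GSK126. Its vehicle level was lower on day 6 than on day 3, and only its treated day 6 library stood above day 3. Day 6 ratios were 1.22 for Eif4ebp1, which encodes the translation repressor 4E-BP1, and 0.36 for Sesn2, a leucine sensor upstream of mTORC1.

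All 8 genes of amino acid and one-carbon synthesis had positive day 6 ratios, from 0.40 to 1.59. Asns, asparagine synthetase, stood at 77.2, 127 and 33.1 CPM with vehicle and 106, 382 and 61.4 CPM with GSK126. Mthfd2, a mitochondrial folate enzyme, stood at 83.0, 105 and 44.7 CPM with vehicle and 95.3, 245 and 76.5 CPM with GSK126. In both genes GSK126 was above vehicle on every day. The serine synthesis enzymes differed among themselves. Psph, its last enzyme, had ratios of 0.22, 1.35 and 0.07, whereas Phgdh, its first, had -0.02, 0.40 and -0.49, and Psat1, between them, had -0.28, 0.49 and 0.78. Day 6 ratios of the proline enzymes were 1.13 for Pycr1 and 0.56 for Aldh18a1, and Shmt2, a mitochondrial serine hydroxymethyltransferase, had 0.74.

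All 5 amino acid transporters had positive day 6 ratios as well, with a median of 1.66. Slc7a11, the cystine importer xCT, stood at 1.37, 5.48 and 0.434 CPM with vehicle and 3.33, 27.7 and 0.827 CPM with GSK126. Its day 6 ratio was 2.33 (2.15 to 2.53), and its day 10 ratio of 0.90 rests on 42 and 78 counts, with an interval of 0.13 to 1.77. Slc6a9, the glycine transporter GlyT1, stood at 17.3, 26.6 and 8.0 CPM with vehicle and 20.4, 84.1 and 7.55 CPM with GSK126. Its day 10 interval, -0.29 to 0.13, spans 0. The light and heavy chains of the large neutral amino acid exchanger were nearer to vehicle, with day 6 ratios of 0.60 for Slc7a5 and 0.92 for Slc3a2. Slc6a9 shares 46 bases with Ccdc24, as Shmt2 does 34 bases with Ndufa4l2. Slc7a3 had a ratio of 2.13 (1.67 to 2.67) at no more than 3.74 CPM.

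**Figure D2:**
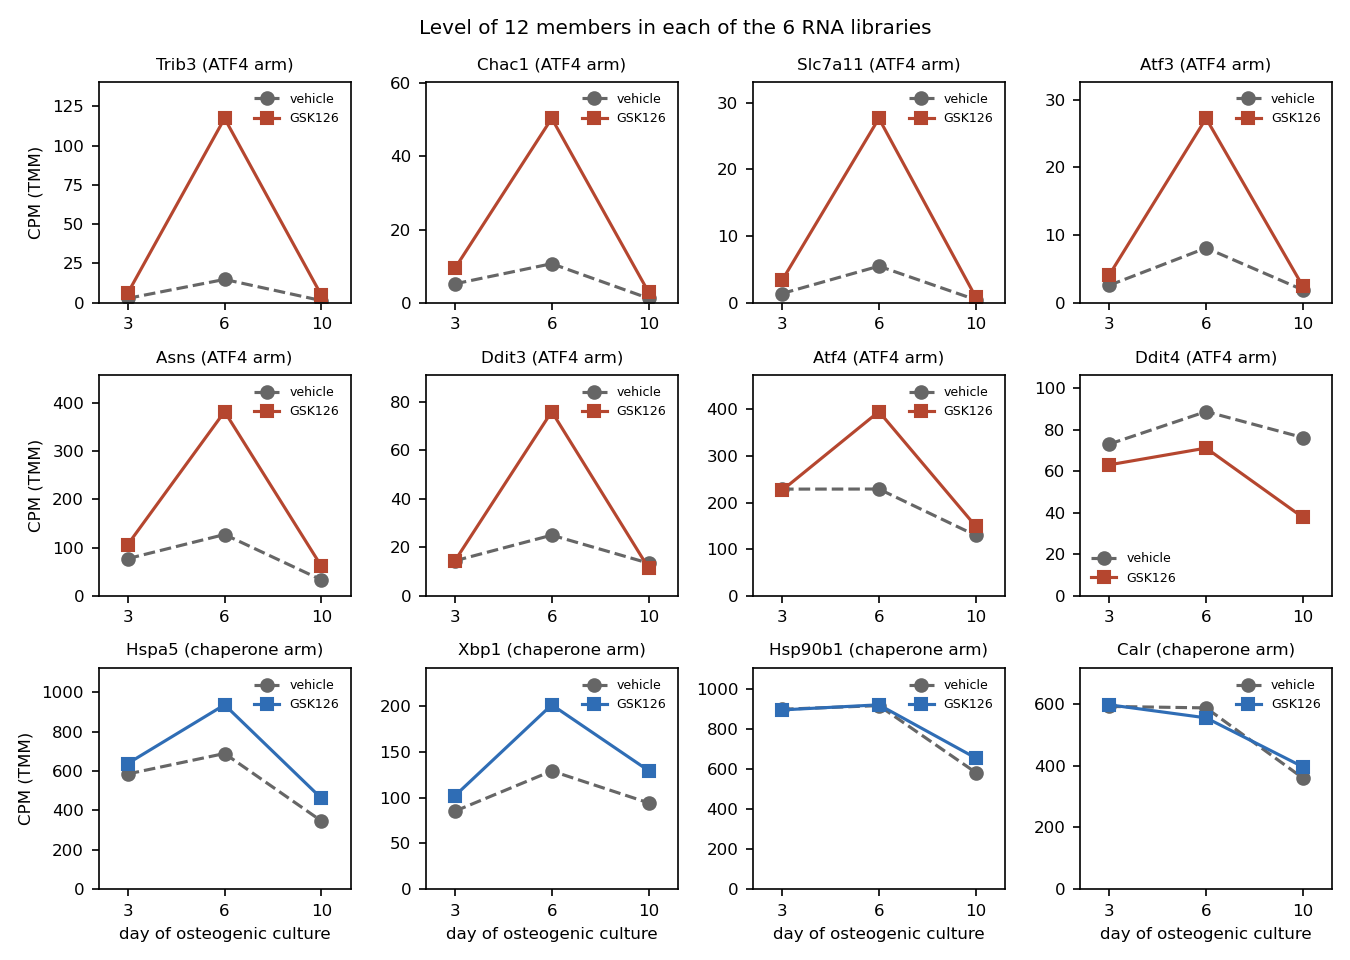
CPM scaled by TMM (vertical axis, linear from 0, its own range in each panel) on days 3, 6 and 10 for 12 members, with 1 point per library, grey dashed for vehicle and coloured for GSK126 (red for the ATF4 arm, blue for the chaperone arm). The treated day 6 library is the highest for 7 of the 8 ATF4 arm genes drawn, at 117 CPM for Trib3 and 395 CPM for Atf4. Ddit4 is lower with GSK126 on every day.

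In the chaperone arm, the sensors and degradation factors had larger median ratios on day 6 (0.64 and 0.71) than the folding factors (0.11). Day 6 ratios were 0.77 for Atf6, a sensor that is cut into a transcription factor, 0.64 for Xbp1, the factor spliced by IRE1, and 0.49 for Ern1, which encodes IRE1. Xbp1 stood at 85.2, 129 and 94.3 CPM with vehicle and at 102, 201 and 129 CPM with GSK126, above vehicle on each day. Herpud1 and Edem1, which serve degradation of misfolded proteins, had day 6 ratios of 0.72 and 0.69. Herpud1 stood at 50.6, 65.5 and 41.1 CPM with vehicle and 52.4, 108 and 43.8 CPM with GSK126, whereas Edem1 stood at 143, 141 and 100.5 CPM with vehicle and 147, 229 and 158 CPM with GSK126. Herpud1 was near vehicle again on day 10, and Edem1 was not, with a ratio of 0.65 (0.60 to 0.70).

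The 11 folding genes had a median day 6 ratio of 0.11 and a median day 10 ratio of 0.33. Hspa5, which encodes BiP, the main ER Hsp70, stood at 584, 688 and 346 CPM with vehicle and 638, 936 and 461 CPM with GSK126. It was above vehicle on each day, by 1.36-fold on day 6. Hsp90b1, the ER Hsp90 GRP94, stood at 898, 916 and 582 CPM with vehicle and 895, 920.2 and 654 CPM with GSK126. Calr, the lectin chaperone calreticulin, stood at 592, 587 and 359.9 CPM with vehicle and 597, 555 and 396 CPM with GSK126, and its day 6 ratio of -0.08 (-0.11 to -0.06) was the only negative one of the arm on that day. For both genes the treatments stood close together on days 3 and 6, and both treatments were lowest on day 10.

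On day 10, ratios of the remaining folding genes were 0.37 for the co-chaperone Dnajc3, 0.36 for the lectin chaperone Canx, 0.46 for the secreted ER protein Manf, 0.37 for Creld2 and 0.33 and 0.29 for the disulfide isomerases Pdia6 and Pdia4. Each of these was larger than the same gene's day 6 ratio. The co-chaperone Dnajb9 had 0.57 on day 6 and -0.10 on day 10, and Sdf2l1, a BiP-associated protein, had 0.03 and 0.12 with intervals that span 0. Scaling by library size in place of TMM lowered the chaperone arm median of day 10 from 0.31 to 0.26.

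**Figure D3:**
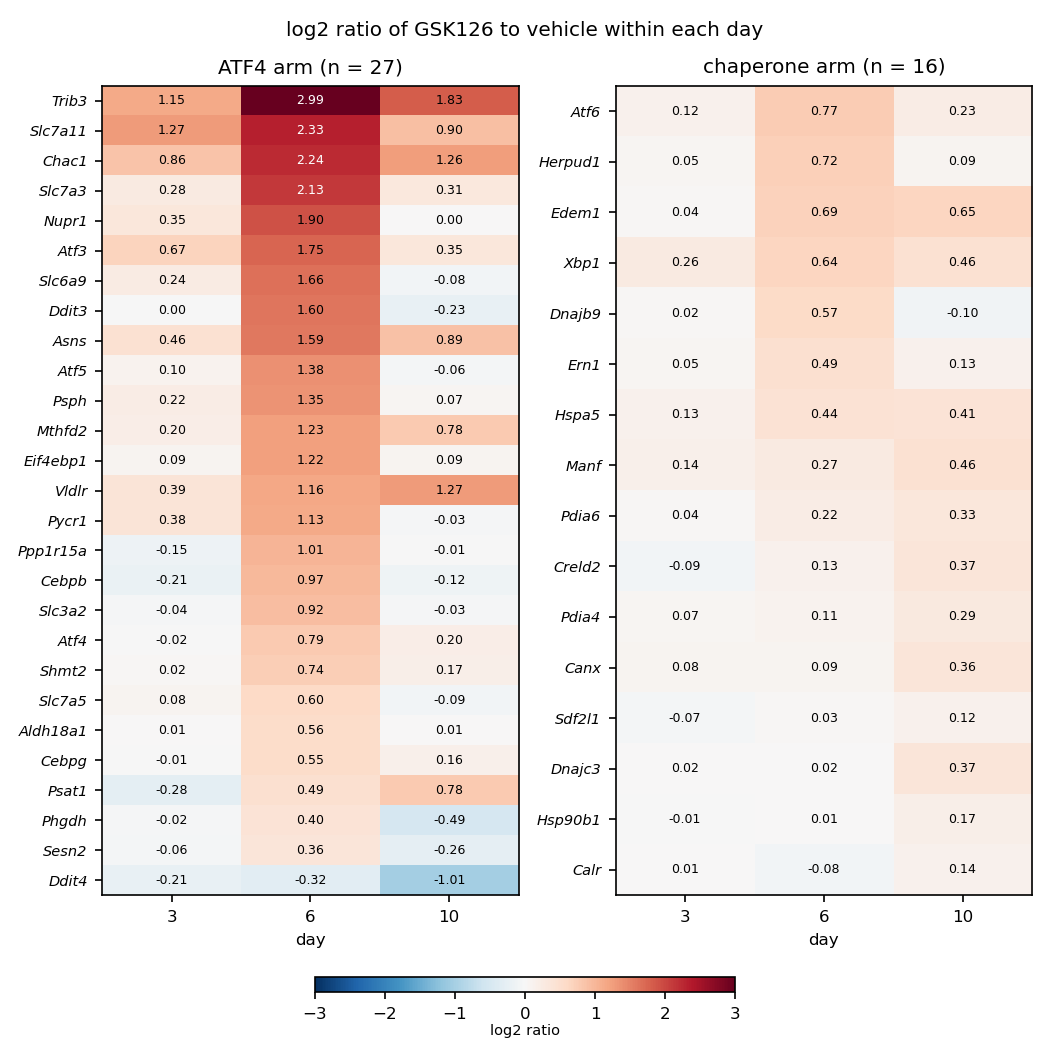
Log2 ratio of GSK126 to vehicle on each day (columns) for the 27 ATF4 arm genes (left) and the 16 chaperone arm genes (right), ordered by the day 6 ratio and printed in each cell, from blue (lower with GSK126) to red (higher). The day 6 column runs from 2.99 for Trib3 to -0.32 for Ddit4 on the left and from 0.77 to -0.08 on the right.

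Over the 3 days together, the GSK126 difference was tested with edgeR's quasi-likelihood fit on all 14344 genes, with day and treatment as terms and Benjamini-Hochberg adjustment. It called 0 of 43 members higher (all genes 1.01%) and 0 lower (all genes 0.272%) at an adjusted p below 0.05. The spread in this fit comes from how the difference varies between days. A difference that changes between days adds to that spread, so the lack of calls does not speak to such a difference. At an unadjusted p below 0.05 there were 13 members (all genes 19.6%), and DESeq2 called 8 higher (all genes 4.80%): Atf3, Chac1, Trib3, Slc7a11, Asns, Mthfd2, Vldlr and Xbp1. The limma-voom fit called 2 (all genes 1.38%), Trib3 and Slc7a11. The sign was positive for 25 of 27 ATF4 arm genes, with a median log2 difference of 0.46, and for 16 of 16 chaperone arm genes, with a median of 0.19, beside -0.001 for all genes. The largest differences were 2.03 for Trib3 (SE 0.36, edgeR adjusted p = 0.0667), 1.61 for Slc7a11 (SE 0.29, adjusted p = 0.0691) and 1.48 for Chac1 (SE 0.28, adjusted p = 0.0723). Next to these, Vldlr had 0.94 (adjusted p = 0.0769), Asns 0.98 (adjusted p = 0.0905) and Xbp1 0.45 (adjusted p = 0.0845). The negative ones were Ddit4 at -0.51 (adjusted p = 0.180) and Phgdh at -0.04.

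The ATF4 arm difference was smaller without day 6. Without both day 6 libraries the arm median of this term was 0.09 in place of 0.46. Of the members 0 were then called, beside 18 higher and 1 lower of all 14475 genes. Ddit3, Cebpb, Sesn2, Ppp1r15a, Slc7a5 and Slc3a2 then turned negative, and Ddit4 and Phgdh stayed negative. Without day 3 the arm median was 0.66, with Trib3 and Vldlr called (all genes 1.41%), and without day 10 it was 0.71. The chaperone arm median was 0.17 without day 6. A term for the GSK126 difference on day 6 against days 3 and 10 was added after the day 6 ratios had been seen, with 1 residual degree of freedom. It was positive for 27 of 27 ATF4 arm genes (median 0.96) and for 8 of 16 chaperone arm genes (median 0.02). Of 43 members 0 were called by edgeR (all genes 0%) and 26 had an unadjusted p below 0.05 (all genes 4.98%), 24 of them in the ATF4 arm. DESeq2 called 8 higher (all genes 0.223%): Trib3, Slc6a9, Psph, Atf5, Nupr1, Eif4ebp1, Ddit3 and Slc3a2. The limma-voom fit called 0 (all genes 0 of 14344). In edgeR, Ddit3 had 1.72 (SE 0.20), Nupr1 1.73 (SE 0.21) and Atf5 1.36 (SE 0.17), each at an adjusted p of 0.597.

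The term for day 10, 4 days after removal, against days 3 and 6 had the opposite sign in the arms. Day 10 was also the latest day, so removal and culture time cannot be told apart. The ATF4 arm had a median of -0.48 with 24 of 27 genes negative, and the chaperone arm had a median of 0.17 with 12 of 16 genes positive. Here edgeR called 0 of 43 members (all genes 0%). DESeq2 also called 0 (all genes 10 higher and 12 lower of 14344), as did limma-voom (all genes 0 of 14344). At an unadjusted p below 0.05 in edgeR there were 2 members, a share below that of all genes (7.01%). These were Ddit4 at -0.75 (SE 0.14) and Phgdh at -0.68 (SE 0.23), each at an edgeR adjusted p of 0.704.

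Over time, both arm medians with vehicle were highest on day 6 and lowest on day 10, with a wider range in the ATF4 arm. Relative to the vehicle library of day 3, the median ATF4 arm gene stood at 0.40 on day 6 and -0.46 on day 10 with vehicle, and at 0.09, 1.61 and -0.33 with GSK126 on days 3, 6 and 10, all on the log2 scale. The value of 1.61 is a 3.05-fold median. The chaperone arm stood at 0.08 and -0.30 with vehicle and at 0.04, 0.24 and 0.09 with GSK126. Among the 6 libraries, the GSK126 library of day 6 was the highest for 26 of 27 ATF4 arm genes and 11 of 16 chaperone arm genes. Within vehicle alone, day 6 was the highest day for 22 of 27 ATF4 arm genes and 8 of 16 chaperone arm genes. The highest library was counted for members only, so how often all genes peak on day 6 is not known here. Medium and compound were renewed on day 3 and medium on day 6, and the time since a medium change cannot be told apart from the day.

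**Figure D4:**
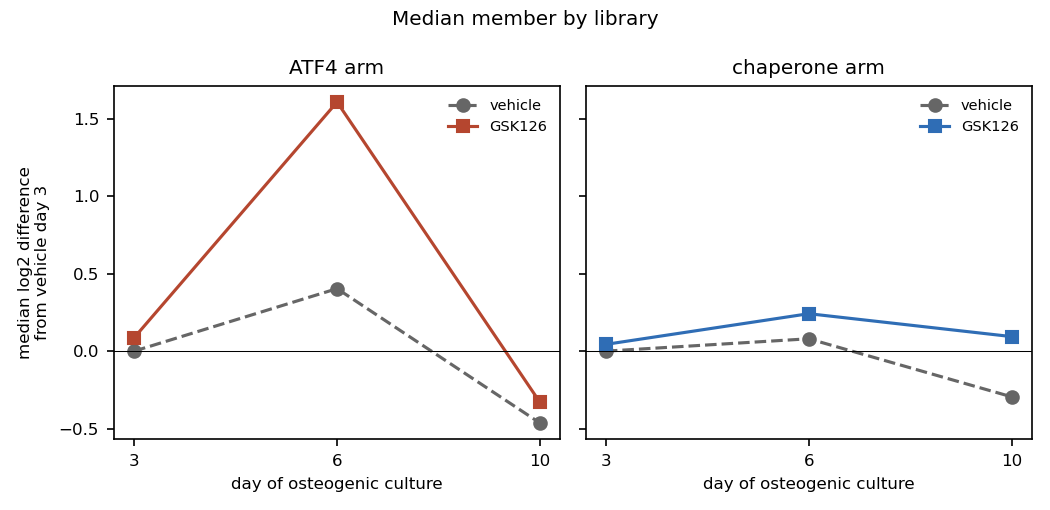
Median log2 difference of the arm's genes from the vehicle library of day 3 (vertical axis, shared) on days 3, 6 and 10, with 1 point per library, grey dashed for vehicle and coloured for GSK126. The ATF4 arm (n = 27) reaches 1.61 in the treated day 6 library against 0.40 in vehicle, and the chaperone arm (n = 16) stays between -0.30 and 0.24.

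The day 6 against day 3 term, over both treatments, called 0 of 43 members in edgeR (all genes 0.516% higher and 0.237% lower). A total of 25 members had an unadjusted p below 0.05 (all genes 26.2%), 20 of them in the ATF4 arm. DESeq2 called 19 higher (all genes 6.96%), 15 of the ATF4 arm with Atf6, Hspa5, Herpud1 and Xbp1, and limma-voom called 2 (all genes 0.516%). The sign was positive for 27 of 27 ATF4 arm genes, with a median of 0.84, and for 13 of 16 chaperone arm genes, with a median of 0.15. Trib3 had 3.41 (SE 0.45, edgeR adjusted p = 0.0511), Slc7a11 2.58 (SE 0.34, adjusted p = 0.0531) and Atf3 2.25 (SE 0.35, adjusted p = 0.0659). In single treatments the ATF4 arm median of day 6 minus day 3 was 0.40 with vehicle, 23 of 27 genes positive, and 1.36 with GSK126, 27 of 27 positive.

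The contrast of day 10 with day 6 was chosen after the peak on day 6 had been seen. In edgeR it called 0 of 43 members higher (all genes 0.00697%) and 0 lower (all genes 0%), with 32 members at an unadjusted p below 0.05 (all genes 28.5%). DESeq2 called 28 lower (all genes 7.10%), 21 of the ATF4 arm and 7 of the chaperone arm, and 1 higher (all genes 7.79%), Sdf2l1. With limma-voom 0 were called (all genes 0 of 14344). All 27 ATF4 arm genes were negative (median -1.18) and 14 of 16 chaperone arm genes were (median -0.34). Slc7a11 had -4.44 (SE 0.39, edgeR adjusted p = 0.0535), Trib3 -4.17 (SE 0.46, adjusted p = 0.0567) and Chac1 -3.72 (SE 0.36, adjusted p = 0.0535). The ATF4 arm median was -0.82 with vehicle and -1.68 with GSK126. These 3 contrasts between days share libraries, so their values are set side by side and not counted as separate support.

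Day 10 against day 3 gave calls in both arms. In edgeR 3 of 43 members rose (all genes 14.1%) and 11 fell (all genes 12.5%). In the ATF4 arm 6 fell: Slc7a5 by 1.51 on the log2 scale (SE 0.18, edgeR adjusted p = 0.0119), Sesn2 by 0.92 (SE 0.16, adjusted p = 0.0177), Chac1 by 1.95 (SE 0.35, adjusted p = 0.0184), Slc7a11 by 1.86 (SE 0.37, adjusted p = 0.0238), Asns by 1.03 (SE 0.26, adjusted p = 0.0390) and Atf4 by 0.72 (SE 0.20, adjusted p = 0.0481). Each of these was lower on day 10 than on day 3 in both treatments. Slc7a5 went from 160.3 to 59.3 CPM with vehicle and from 169.5 to 55.9 CPM with GSK126. The Atf4 call was lost without the low-count filter (adjusted p = 0.0514). Vldlr rose by 1.15 (SE 0.23, adjusted p = 0.0226) and Pycr1 by 1.33 (SE 0.27, adjusted p = 0.0242). Pycr1, which makes proline, stood at 18.1, 38.0 and 51.7 CPM with vehicle and 23.7, 82.9 and 50.6 CPM with GSK126, against the direction of most of the arm.

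In the chaperone arm 5 abundant folding genes fell: Calr by 0.65 (SE 0.10, edgeR adjusted p = 0.0155), Canx by 0.70 (SE 0.11, adjusted p = 0.0165), Hspa5 by 0.62 (SE 0.12, adjusted p = 0.0222), Hsp90b1 by 0.54 (SE 0.10, adjusted p = 0.0222) and Pdia4 by 0.48 (SE 0.10, adjusted p = 0.0251). Canx stood at 604, 627 and 337 CPM with vehicle and 636, 666 and 433 CPM with GSK126, lowest on day 10 in both. Sdf2l1 rose by 0.59 (SE 0.12, adjusted p = 0.0258), from 8.70 to 12.3 CPM with vehicle and from 8.28 to 13.4 CPM with GSK126. The sensors Atf6, Xbp1 and Ern1 had positive differences of 0.41, 0.24 and 0.15 that were not called. The arm medians were -0.59 (ATF4) and -0.18 (chaperone), beside -0.008 for all genes. Library size in place of TMM moved the median of all genes to -0.107 and the split of all calls from 2026 higher and 1793 lower to 1484 and 2644, and members were then called 3 higher (all genes 10.3%) and 13 lower (all genes 18.4%). Without both day 6 libraries 5 members were called higher (all genes 13.3%) and 15 lower (all genes 9.94%).

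**Figure D5:**
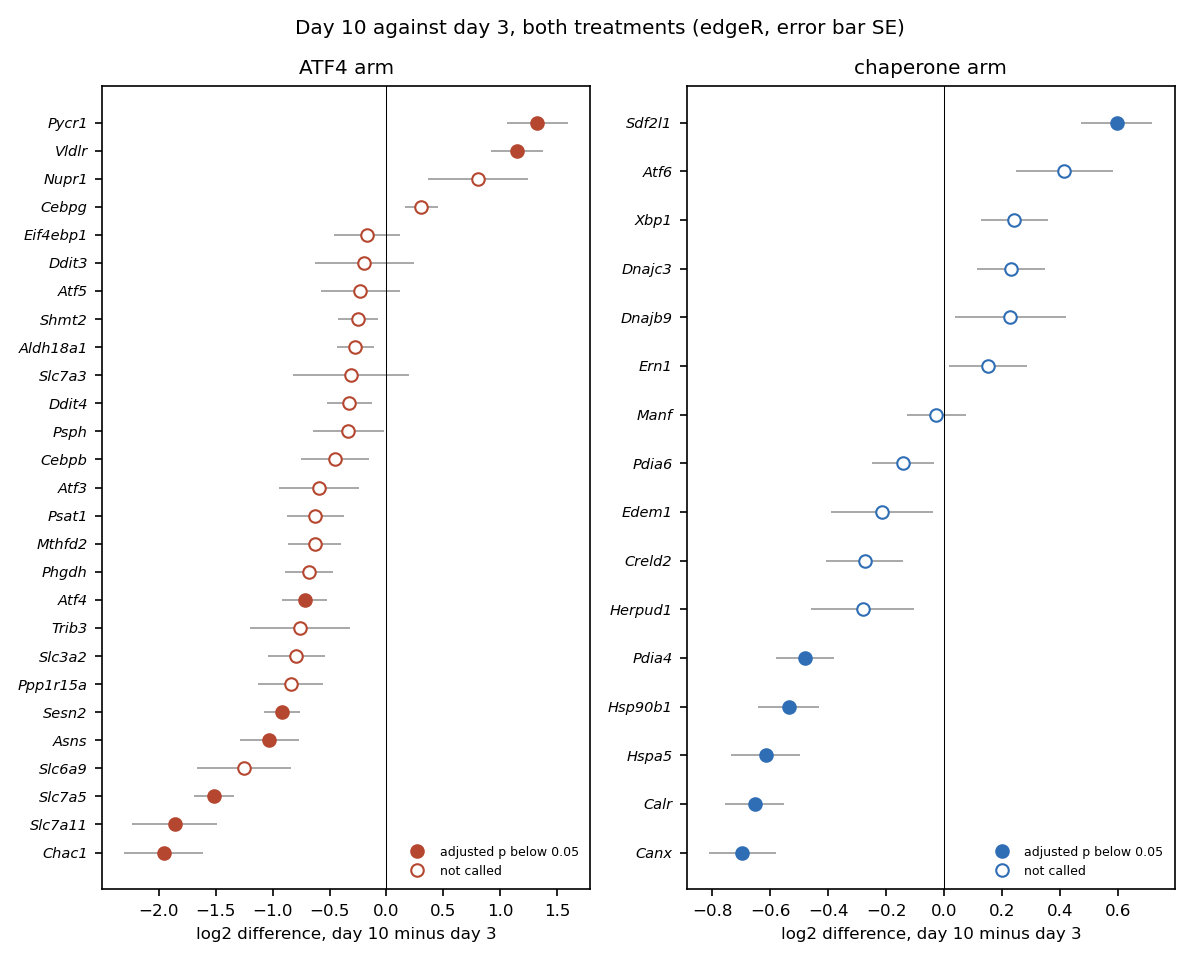
Fitted log2 difference of day 10 minus day 3 over both treatments (horizontal axis, its own range in each panel, bars give the SE) for each gene of the ATF4 arm (left) and the chaperone arm (right). Filled points passed an edgeR adjusted p of 0.05: 2 higher and 6 lower on the left, and 1 higher and 5 lower on the right.

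Further genes of the same pathways, outside the 44, were read from lists of their kind, also chosen with earlier results of these data known. All 20 tRNA ligases, which charge tRNA with amino acids, were tested, and their median day 6 ratio was 0.51, with Sars (0.99) and Gars (0.93) the highest. Of 14 further ATF4 targets 12 passed the filter, all with a positive day 6 ratio (median 0.85) and 5 at 2-fold or more, with Gadd45a (1.78), Cth (1.52) and Gpt2 (1.38) the highest. The 14 eIF2 kinases and factors had a median day 6 ratio of 0.09, and the 20 further ER folding and degradation genes 0.13, with 0 of them at 2-fold. None of these genes was called for GSK126 over the 3 days by edgeR, where 5, 2, 3 and 5 genes of the lists, in this order, had an unadjusted p below 0.05, beside 19.6% of all genes. From day 3 to day 10, where edgeR called 14.1% of all genes higher and 12.5% lower, it called 1 of 20 tRNA ligases higher (Dars) and 3 lower (Cars, Iars, Yars), 4 of 12 ATF4 targets lower, Gdf15 among them by 2.15, 3 of 14 in the eIF2 group lower, and 2 of 20 ER genes higher and 5 lower, Hyou1 by 0.79.

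Day 6 ratios can be set beside the promoter elements shown above, as a description over 38 members that had both a promoter entry and a ratio. The 8 genes with CARE and no ERSE, all of the ATF4 arm, had ratios from 1.13 to 2.99 with a median of 1.83. The 7 with ERSE alone, all chaperones, had ratios from -0.08 to 0.44 with a median of 0.09. Herpud1, with both kinds of element, stood at 0.72, and the 22 genes with neither ranged from -0.32 to 1.66 with a median of 0.67. Of these 22, the 16 of the ATF4 arm had a median of 0.85 and the 6 of the chaperone arm 0.53. On day 10 the medians were 0.90 for CARE, 0.36 for ERSE and 0.04 for neither, and Herpud1 stood at 0.09, so that the genes with neither element were above those with ERSE on day 6 and below them on day 10.

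H3K27me3 islands, broad enriched regions called by the authors from 1 ChIP library against its input per treatment, were listed near few of these genes 24 hours after the first dose. Within 2000 bases of the start site an island was found for 2 of 39 members with vehicle (13.8% of 27025 symbols) and 1 of 39 with GSK126 (11.3%), all in the ATF4 arm. With vehicle these were chr1:191184001-191190800 at Atf3, with a fold enrichment of 1.85 in the authors' deposited table, and chr6:7693801-7700400 at Asns, with 2.42. With GSK126 only chr6:7693801-7700600 at Asns was listed, with 2.06 in the authors' deposited table. Each lies upstream of its gene, and no island overlapped the body of any of the 44 genes in either treatment (17.1% and 14.8% of all gene names). The shares of all symbols and gene names include genes that did not pass the low-count filter. No share among the genes tested was computed, so these shares do not set the members apart from other expressed genes. Lists called separately differ in what passes the caller, 34498 islands with vehicle and 24947 with GSK126, so that the Atf3 island's absence from the second list is no measured change.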

How the data were processed

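Per the labels' protocols, RNA libraries were made with the TruSeq v2 mRNA kit, which does not mark strand. The submitters' processing notes name CASAVA 1.9, TopHat2 2.0.6, HTSeq 0.5.3p9, BWA 0.5.9, SICER 1.1 with mm10 as the build. Which annotation release, counting mode, handling of multiply mapped reads and SICER settings were used is not given in the sources used here. Per gene, the deposited table holds the authors' whole-number read counts not normalized, and the authors' RPKM, which was used only for levels between genes. Every deposited count is even, so counts were divided by 2 into fragments for the binomial intervals. The authors' deposited island lists give ChIP and input counts, a p-value, a fold ratio of ChIP to input and an adjusted p-value per island.

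The main test was the quasi-likelihood F test of edgeR 4.0.16 (R 4.3.3) with additive terms for day and treatment, TMM scaling, filterByExpr by treatment, a Benjamini-Hochberg threshold of 0.05 and 2 residual degrees of freedom. Of 23358 rows, 14344 passed the filter, and no member is among the 69 rows with repeated names. Added terms for 1 day left 1 residual degree of freedom. Each SE was derived from the F statistic (the fitted value over its root), whose variance is in part shared across genes. The coefficient of variation from edgeR's common dispersion was 14.8%. With 1 library per treatment and day, it rests on how the treatment difference varied between days and holds no spread between replicates. DESeq2 1.42.0 and limma 3.58.1 (voom), other scalings, no filter and leaving out each day were alternatives. The fit was also run on simulated counts with no differences between days and a treatment difference equal on all days. That run does not cover treatment differences that change between days, as those of the members did. The members, arms and lists were chosen with earlier results of these data known. All members could be named, and genes outside the 44 were named as the largest of their list. Motifs and islands were searched in Python 3.11.15 on RefSeq promoters.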

Additional observations from a re-analysis of the deposited data

How the results depend on the processing

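With 1 library per treatment and day and 2 residual degrees of freedom, calls differed between tools more than directions did. Of 2107 fitted member differences under an alternative, 1984 kept direction and side of the threshold, 102 were newly called, 1 lost its call and 20 took the opposite sign. For GSK126 over 3 days, the count of members called higher was 0 in edgeR (all genes 145 of 14344), 8 in DESeq2 (688 of 14344) and 2 in limma-voom (198 of 14344). It was 2 without day 3 (202 of 14340), 0 without day 6 (18 of 14475) and 0 without day 10 (4 of 14516). For day 6 against day 3 it was 0, against 1 with DESeq2 size factors (all genes 79 of 14344) and 3 with library size (76 of 14344). It was 3 with no low-count filter (101 of 18465), 19 in DESeq2 (998 of 14344) and 2 in limma-voom (74 of 14344). For day 10 against day 6 the count of members lower was 0, against 6 with library size (all genes 25 of 14344). It was 7 with no filter (25 of 18465) and 28 in DESeq2 (1018 of 14344), which also called 1 higher (1118 of 14344). For the day 6 difference DESeq2 called 8 higher (32 of 14344). For day 10 against day 3, 3 members were higher (all genes 2026 of 14344), against 5 without day 6 (1925 of 14475). The cause was not tested.

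Medians moved as follows. For day 10 against day 3 the ATF4 arm had -0.69 with library size, -0.52 with no filter and -0.66 without its transcription factors. For day 6 against day 3 the chaperone arm had 0.055 with library size. Without Atf6, Ern1 and Xbp1 the chaperone arm had -0.46 for day 10 against day 6 and -0.0058 for the day 6 difference, the opposite sign. Signs also turned in these cases. Without day 6, the GSK126 difference was -0.12 for Ddit3, -0.17 for Cebpb, -0.16 for Sesn2, -0.085 for Ppp1r15a, -0.0051 for Slc7a5, -0.040 for Slc3a2 and -0.042 for Dnajb9. Without day 10 it was 0.19 for Phgdh, -0.035 for Calr and -0.022 for Sdf2l1, and with no day term 0.073 for Phgdh. With library size, day 6 against day 3 was -0.065 for Hsp90b1, -0.058 for Pdia6 and -0.039 for Canx, and the day 10 difference was -0.00281 for Mthfd2 and -0.057 for Xbp1. For the day 6 difference, Sdf2l1 had 0.000442 with DESeq2 size factors, 0.0000333 with library size and 0.000461 in DESeq2, and Creld2 0.0105 in limma-voom. Members with an island went from 2 with vehicle and 1 with GSK126 near the start to 0 and 0 over the whole gene, and to 1 with vehicle at an island adjusted p of at most 1e-10. The main fit already pairs vehicle and GSK126 libraries by day. With no day term it called 0 members for GSK126, and also 0 of all 14344 genes in either direction.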
